A study of Mus musculus with 32 samples.

Results

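The transcripts described here are 9 genes of the skeletal muscle triad together with Dhrs7c, 10 of the 33397 genes measured in gastrocnemius (GAS) muscles of C57BL/6 mice after the sciatic nerve was cut. Ryr1, Ryr3, Cacna1s, Cacnb1, Cacng1, Jph1, Jph2, Jsrp1 and Stac3 were taken for their known place in excitation-contraction coupling. Dhrs7c was taken because its level fell so far against 0 d in these samples, so its changes are described without a test and it enters none of the counts of called genes. Bulk RNA-seq was done on 32 samples, 4 at each of 0, 1, 3, 5, 7, 14, 21 and 28 d post denervation. No transgene or drug is named for any group, and all are labelled with sciatic nerve transection, the 0 d samples included. The study's methods give the animals as young adult males and the control as a sham operation, and 0 d was taken here as that control. The values are FPKM, fragments scaled by exon length and by the mapped fragments of the library, so levels of different genes are compared per length. The columns carry a day and a letter, or for the control the letter C and a number, and are not tied to single animals in the table. The study states that its samples were independent biologically. P-values of the tests over all genes rest on a spread within groups that all groups share. Those of ratios rest on the 4 samples of each group compared.

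In a skeletal muscle fibre the action potential travels into the transverse tubules, where the voltage sensor CaV1.1 touches the ryanodine receptor RyR1 of the sarcoplasmic reticulum without calcium having to enter the cell. RyR1 then releases the stored calcium that starts contraction. Junctophilins hold both membranes together, the adaptor STAC3 and the beta subunit of the channel are needed for CaV1.1 to reach the junction and work there, and the gamma subunit restrains its current. Dhrs7c encodes a short-chain dehydrogenase/reductase of the sarcoplasmic reticulum, also called SRP-35.

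The text in the labels on RNA extraction names retinas, whereas the tissue field names gastrocnemius. The samples held muscle RNA: Acta1 was between 7821 and 14741 FPKM, while the photoreceptor genes Pde6a and Rcvrn, looked up afterwards, did not exceed 0.0692 and 0.118 FPKM. The heart genes Myh6, Nppa and Ryr2 stayed at or below 0.655, 0.132 and 0.0303 FPKM. The libraries held 14199898 to 17561590 fragments. Library 1 of 3 d stood apart, at -18.5 on the first principal component against 1.15 to 6.40 for the other 3 libraries of that day, and the members' changes at 3 d are given with and without it. The mitochondrial share of fragments was 14.5% to 18.2% at 0 d and 6.70% to 17.1% later. Among the 11943 genes with a mean of at least 1 FPKM, the median log2 fold change against 0 d was 0.12 at 1 d and between 0.20 and 0.32 from 3 d on. Fold changes are therefore also given after scaling every sample by its median ratio over genes, which brought that median to between -0.02 and 0.03. All 7 comparisons against 0 d share the same 4 control samples.

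The promoter sequences of 3 genes with different courses are shown, so that a gene that rose late (Cacna1s), a gene that fell (Jph2) and a gene that passed the test on no day as deposited (Ryr1) can be read side by side. RefSeq windows (GRCm38.p6) were matched for 4 of the 10 genes. The bases upstream of the transcript start are printed 5′ to 3′ on the gene's strand, with each CANNTG (the E-box bound by myogenic factors such as MyoD and myogenin) and each CATTCC or its reverse GGAATG (the MCAT element) in capitals.
Cacna1s, chr1:136052561-136052749, + strand: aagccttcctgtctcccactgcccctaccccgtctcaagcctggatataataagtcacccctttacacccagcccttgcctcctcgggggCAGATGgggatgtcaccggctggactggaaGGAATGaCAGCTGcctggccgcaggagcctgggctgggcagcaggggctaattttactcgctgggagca
Jph2, chr2:163397994-163398243, - strand: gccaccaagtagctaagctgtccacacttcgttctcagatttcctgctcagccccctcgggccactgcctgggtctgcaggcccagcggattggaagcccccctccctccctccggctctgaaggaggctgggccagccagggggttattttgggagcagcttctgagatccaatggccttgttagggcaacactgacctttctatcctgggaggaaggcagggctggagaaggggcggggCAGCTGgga
Ryr1, chr7:29125180-29125401, - strand: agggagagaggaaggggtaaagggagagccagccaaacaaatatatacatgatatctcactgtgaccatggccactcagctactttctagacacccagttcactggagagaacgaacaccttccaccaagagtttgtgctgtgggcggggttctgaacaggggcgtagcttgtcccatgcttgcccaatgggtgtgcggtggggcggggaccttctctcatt
Counted from the first base printed, Cacna1s held CAGATG at 91, GGAATG at 121 and CAGCTG at 128, Jph2 held CAGCTG at 242, and the Ryr1 stretch held neither motif. Both strands were searched. Among 32851 mouse promoter windows of 250 bases upstream, CANNTG was in 66.2%, its form CAGCTG in 13.0% and CATTCC in 12.6%. The Cacna1s and Ryr1 stretches are 189 and 222 bases long, shorter than those windows. The core motif of MEF2 was in 3.20% of windows and in none of the 3 stretches. A match describes letters only.

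Dhrs7c (chromosome 11, 67798187 to 67816002, + strand, GRCm38) had 99.6, 95.6, 102 and 98.4 FPKM in the 0 d samples. At 1 d the samples had 50.2, 51.1, 43.8 and 40.1 FPKM, and at 3 d 4.63, 3.85, 2.94 and 3.44 FPKM. At 7 d they had 0.953, 1.07, 1.27 and 0.789 FPKM. All samples of these days lay below every 0 d sample, and the 1, 3 and 7 d groups did not overlap each other. The mean at 7 d was 1.03% of that at 0 d, a 97.1-fold difference that rests on 23 to 40 fragments per library against 2677 to 2932 at 0 d.

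After 7 d the Dhrs7c means were 1.46 ± 0.358, 2.18 ± 0.285 and 2.69 ± 0.932 FPKM (SD, n = 4) for 14, 21 and 28 d, in that order. Ordered by mean, the days ran 0, 1, 3, 28, 21, 5, 14 and 7 d. The samples of 0, 1 and 3 d did not overlap each other. From 3 d on in that order, each day's samples overlapped those of its neighbour, and the 28 d samples spread from 1.75 to 3.67 FPKM.

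On log2(FPKM + 1) the difference of Dhrs7c from 0 d was -1.09 for 1 d, -4.42 for 3 d (-4.51 without the library that stood apart), -5.63 for 7 d and -4.79 for 28 d. These are the values that chose the gene. It was the most lowered of the 22071 genes tested at 5, 7, 14, 21 and 28 d, the 7th at 3 d and the 162nd at 1 d. After median-ratio scaling the difference at 7 d was -5.96. Without a pseudocount it was -6.62, and set against the summed FPKM of 8 myofibre genes in the same sample (Acta1, Ckm, Ttn, Des, Tnnt3, Myh4, Myh1 and Myh2), whose sum was itself lower, it was -6.02 on that same scale. In bulk tissue, fewer cells of a type and less RNA per cell cannot be told apart. Within a sample, Dhrs7c ran at 74.2% to 123% of the Ryr1 level at 0 d and at 0.693% to 1.10% of it at 7 d.

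The genes whose course was most like that of Dhrs7c were Lgalsl (Pearson r 0.987), Mlf1 (0.986), Ldha (0.984), Rpl3l (0.983) and Ano5 (0.982), over log2(FPKM + 1) in 32 samples and among 11940 genes. Ldha encodes the muscle form of lactate dehydrogenase and Rpl3l a striated-muscle version of a ribosomal protein. The samples are shared by all these correlations, and any gene that is high in the 8 samples of 0 and 1 d and low later scores highly. At 7 d the mean of these 5 genes was between 4.64% and 26.3% of 0 d, against 1.03% for Dhrs7c.

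**Figure D1:**
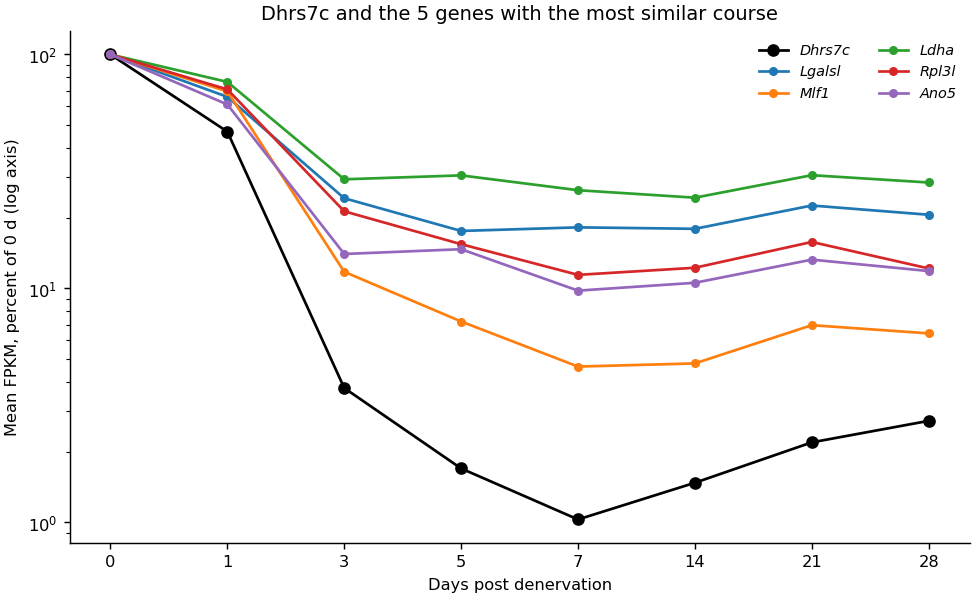
Mean FPKM of Dhrs7c (black) and of the 5 genes with the most similar course (colours), as percent of the 0 d mean on a log axis, against days post denervation (evenly spaced, not to scale). Dhrs7c reaches 1.03% at 7 d and the other 5 genes lie between 4.64% and 26.3%.

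Among the calcium release channels, Ryr1 (chromosome 7, 29003344 to 29125179, - strand), which encodes the release channel of adult muscle, did not pass the test on any day. A gene was called where the adjusted p was under 0.05 over all 22071 genes (limma on log2(FPKM + 1), Benjamini-Hochberg) and the change was at least 1.5-fold. Ryr1 had 80.8, 97.5, 138 and 116 FPKM at 0 d, 117, 129, 116 and 114 FPKM at 7 d, and 78.7, 101, 83.4 and 89.2 FPKM at 28 d. The 0 d samples spanned the whole range of both later days but for the lowest 28 d sample. The log2 fold change was -0.30 ± 0.12 (SE, limma adjusted p = 0.0439) at 3 d, -0.37 without the library that stood apart, and -0.27 ± 0.12 (SE, limma adjusted p = 0.0679) at 28 d. After median-ratio scaling the 28 d value became -0.65 (limma adjusted p = 0.000494), which passed.

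Ryr3 (chromosome 2, 112631355 to 113217096, - strand), the isoform best known from developing muscle, was near the floor of detection, with 18 to 81 fragments per library. Its 0 d samples had 0.0992, 0.127, 0.207 and 0.262 FPKM and its 28 d samples 0.141, 0.0753, 0.0861 and 0.0902 FPKM. The groups overlapped, and no day passed the test. The log2 fold changes, which ran from -0.10 to -0.01 and were -0.07 at 3 d with and without the library that stood apart, understate any change at such low levels because 1 FPKM was added to every value. Exons of Ryr3 share 916 bases with exons of Aven on the opposite strand, which had 128 to 361 fragments per library. Whether counting used strand is not given in the sources used here, so the reads of the pair may not be separable.

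**Figure D2:**
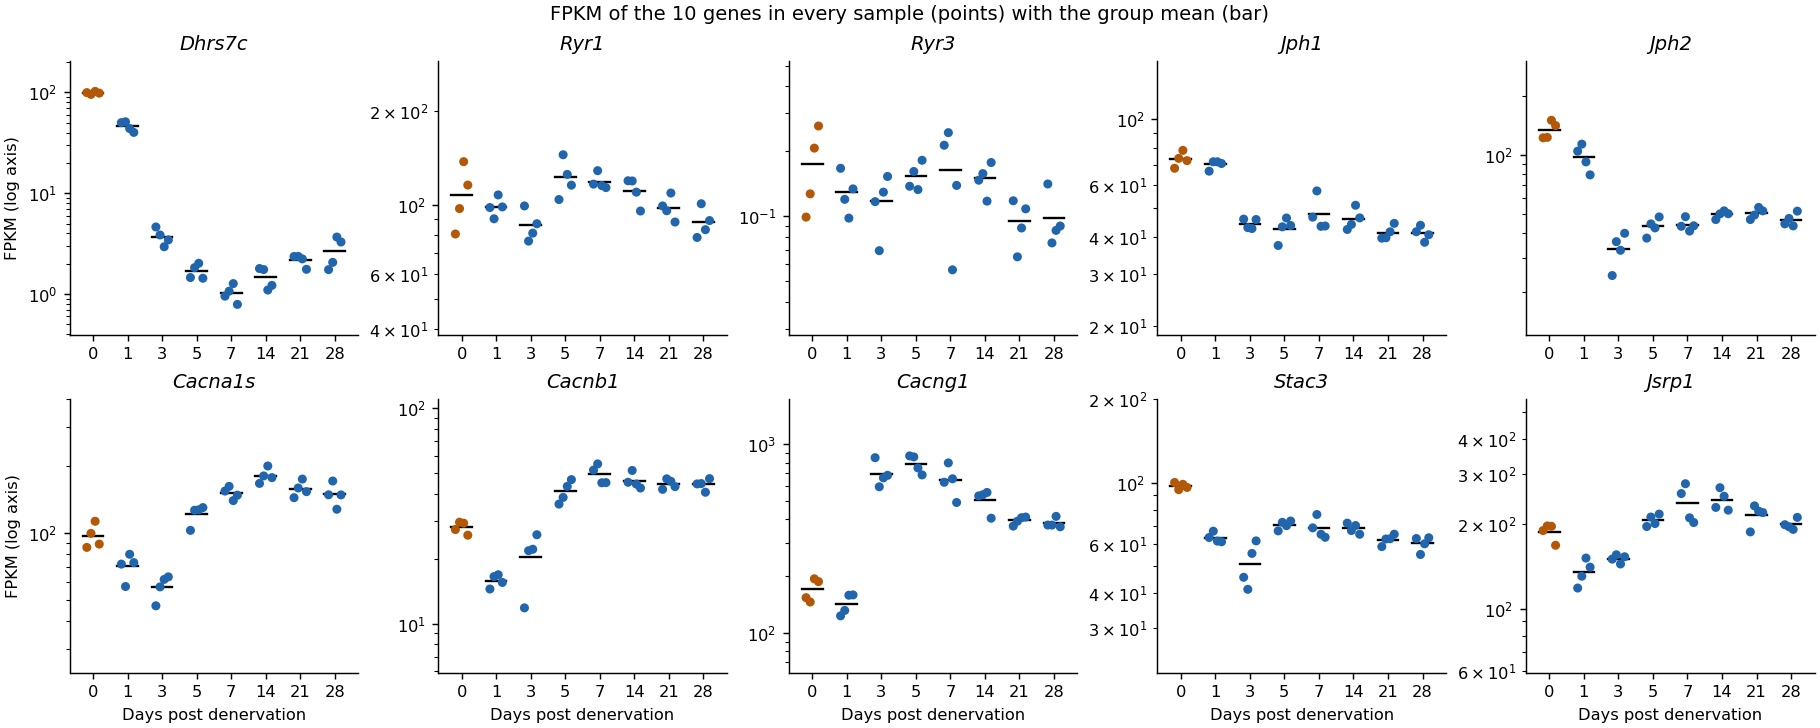
FPKM (log axis) of the 10 genes in each of the 32 samples against days post denervation (evenly spaced); points are samples, orange at 0 d and blue later, and bars are means of 4. Dhrs7c drops from between 95.6 and 102 FPKM to between 0.789 and 1.27 FPKM at 7 d, Cacng1 rises at 3 d, and Jph2 stays below its 0 d level from 3 d on.

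The junctophilins were lower from 3 d on, and Jph2 by far more than Jph1. Jph2 (chromosome 2, 163336242 to 163397993, - strand), the junctophilin shared by heart and skeletal muscle, had 122, 123, 150 and 141 FPKM at 0 d. The 3 d samples had 24.3, 36.2, 32.7 and 39.9 FPKM and the 28 d samples 44.5, 47.5, 43.5 and 51.7 FPKM. Every sample from 1 d on lay below the lowest 0 d sample, and the 3 d and 28 d groups did not overlap either.

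The log2 fold change of Jph2 was -0.46 ± 0.11 (SE, limma adjusted p = 0.00173) at 1 d, short of 1.5-fold as deposited and called after median-ratio scaling (-0.65, limma adjusted p = 4.00e-05). It fell by 1.99 ± 0.11 (SE, limma adjusted p = 9.78e-15) at 3 d, and by 1.85 without the library that stood apart. At 28 d it was still lower, by a log2 fold change of -1.49 ± 0.11 (SE, limma adjusted p = 6.35e-12). The values for 5, 7, 14 and 21 d were -1.61, -1.58, -1.41 and -1.38, all called, and median-ratio scaling gave -2.23 to -1.69 from 3 d on.

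Jph1 (chromosome 1, 16964560 to 17097889, - strand), the junctophilin of skeletal muscle, had 68.3, 73.7, 78.5 and 72.4 FPKM at 0 d, 66.8, 71.8, 71.8 and 70.8 FPKM at 1 d, and 46.0, 43.1, 42.8 and 45.9 FPKM at 3 d. The 1 d samples lay within or just below the 0 d range, and all 3 d samples were below it. Jph1 fell by 0.71 ± 0.07 on the log2 scale (SE, limma adjusted p = 3.67e-09) at 3 d, by 0.72 without the library that stood apart, and by 0.81 ± 0.07 (SE, limma adjusted p = 2.83e-10) at 28 d. With TPM in place of FPKM the log2 fold changes for 3, 5, 7 and 14 d were -0.55, -0.58, -0.43 and -0.46, all short of 1.5-fold.

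The ratio of Jph2 to Jph1 within a sample does not depend on how samples were scaled. It was 1.82 ± 0.127 (SD, n = 4) at 0 d and 1.38 ± 0.225 at 1 d. The mean was lowest at 3 d, with 0.751 ± 0.154, and stood at 0.928 ± 0.0628 for 7 d and 1.14 ± 0.0917 for 28 d. Jph2 therefore went from the higher to the lower of both levels at 3 d, where all 4 ratios lay below 1 (0.825 ± 0.0540, n = 3, without the library that stood apart). The ratio differed from 0 d on all 7 days by an exact two-sided permutation test (p = 0.0286, as low as a comparison of 4 with 4 samples can go, and adjusted p = 0.048 over 42 tests).

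On the voltage sensor side, Cacng1 (chromosome 11, 107703218 to 107716522, - strand), the gamma subunit, rose and all other members fell or did not pass at 3 d. The 0 d samples had 154, 146, 194 and 187 FPKM and the 1 d samples 123, 132, 159 and 159 FPKM. At 3 d they had 849, 595, 664 and 685 FPKM, at 5 d 867, 857, 749 and 688 FPKM, and at 28 d 374, 373, 415 and 365 FPKM. The 0 and 1 d groups overlapped, and every sample from 3 d on lay above both.

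Cacng1 rose by a log2 fold change of 2.03 ± 0.13 (SE, limma adjusted p = 1.61e-13) at 3 d, or 1.93 without the library that stood apart. It was 2.21 ± 0.13 (SE, limma adjusted p = 3.50e-14) at 5 d and 1.17 ± 0.13 (SE, limma adjusted p = 1.43e-08) at 28 d, a mean fold of 4.63 and 2.25. After median-ratio scaling it was called on the same 6 days, at 1.82 on 5 d and 0.79 on 28 d. Cacng1 was thus the only one of the 9 members called higher at 3 and 5 d, as deposited and after median-ratio scaling.

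Cacna1s (chromosome 1, 136052750 to 136119822, + strand), the pore and voltage sensor of CaV1.1, had a course with both directions. The 0 d samples had 86.1, 99.5, 113 and 89.1 FPKM, and the 3 d samples had 47.0, 57.2, 61.8 and 63.4 FPKM. The 7 d samples had 154, 162, 140 and 148 FPKM and the 14 d samples 167, 181, 200 and 177 FPKM. All 3 d samples were below 0 d, all 7 d samples above 0 d, and all 14 d samples above the 7 d samples.

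Cacna1s fell by 0.75 ± 0.11 on the log2 scale (SE, limma adjusted p = 1.15e-06) at 3 d, and by 0.66 without the library that stood apart. It was then higher by 0.64 ± 0.11 (SE, limma adjusted p = 1.23e-05) at 7 d and by 0.90 ± 0.11 (SE, limma adjusted p = 5.11e-08) at 14 d. The fall at 3 d was called after median-ratio scaling too (-0.98), but the later rises were not, with 0.26, 0.51, 0.40 and 0.24 for 7, 14, 21 and 28 d. Between 3 and 7 d, a fold change without the 0 d samples, Cacna1s rose by 1.39 ± 0.11 (SE, limma adjusted p = 7.04e-11) as deposited and by 1.24 after median-ratio scaling. Exons of the antisense gene Gm37759 share 1309 bases with those of Cacna1s, and Gm37759 itself had at most 11 fragments in a library.

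Cacnb1 (chromosome 11, 98001508 to 98023034, - strand), the beta subunit, had 27.3, 29.5, 29.2 and 25.7 FPKM at 0 d, 14.5, 16.5, 16.8 and 15.5 FPKM at 1 d, and 51.5, 55.1, 45.0 and 45.1 FPKM at 7 d. No sample of 1 or 7 d overlapped the 0 d range. Cacnb1 fell by 0.78 ± 0.13 on the log2 scale (SE, limma adjusted p = 3.12e-05) at 1 d. At 7 d it was higher by 0.79 ± 0.13 (SE, limma adjusted p = 1.36e-05), and after median-ratio scaling by 0.42, short of 1.5-fold. At 3 d its log2 fold change was -0.49 ± 0.13 (SE, limma adjusted p = 0.00355) with all libraries and -0.26 without the library that stood apart, and median-ratio scaling gave -0.72 (limma adjusted p = 3.06e-06), which was called.

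Stac3 (chromosome 10, 127501686 to 127508823, + strand), the adaptor that couples CaV1.1 to RyR1, lay below its 0 d range on all days. The 0 d samples had 100, 94.5, 98.8 and 96.2 FPKM, the 1 d samples 63.5, 66.9, 61.6 and 61.3 FPKM, and the 3 d samples 45.6, 41.3, 55.6 and 61.7 FPKM. The highest later sample, at 7 d, had 76.8 FPKM. The log2 fold change was called at 1 d (-0.61 ± 0.08, SE, limma adjusted p = 5.29e-07), 3 d (-0.94, or -0.89 without the library that stood apart), 21 d (-0.64) and 28 d (-0.68), and was short of 1.5-fold at 5, 7 and 14 d (-0.46 to -0.50). After median-ratio scaling it was called on all 7 days, from -1.17 to -0.80. With TPM it was called only at 3 d.

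Jsrp1 (chromosome 10, 80808496 to 80813498, - strand), which encodes the junctional protein JP-45, was not called against 0 d on any day as deposited. Its 0 d samples had 189, 197, 196 and 168 FPKM, its 1 d samples 118, 130, 151 and 140 FPKM, and its 7 d samples 256, 278, 210 and 202 FPKM. The 1 d samples lay below and the 7 d samples above the 0 d range. The log2 fold change was -0.47 ± 0.09 (SE, limma adjusted p = 9.47e-05) at 1 d and 0.32 ± 0.09 (SE, limma adjusted p = 0.00301) at 7 d, both short of 1.5-fold. After median-ratio scaling the 1 d value was called lower (-0.66, limma adjusted p = 4.72e-06), and the 7 d value turned to -0.05 (limma adjusted p = 0.70), with negative values on all later days too. At 3 d it was -0.31 with and without the library that stood apart. From 3 to 7 d it rose by 0.64 ± 0.09 (SE, limma adjusted p = 1.87e-06), which median-ratio scaling reduced to 0.49.

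**Figure D3:**
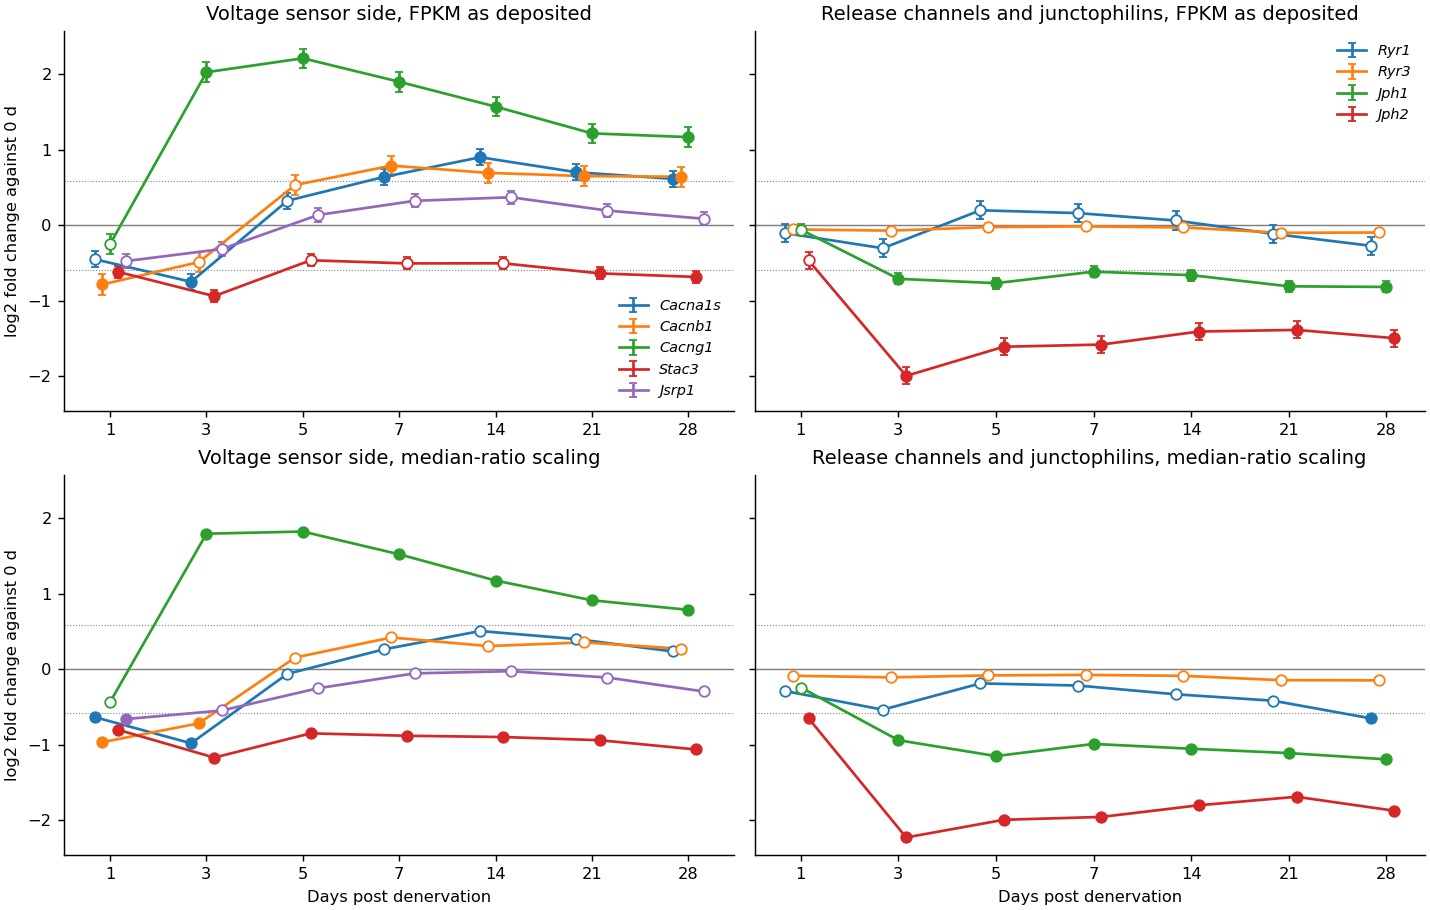
Log2 fold change against 0 d on log2(FPKM + 1) for the 9 members chosen by function, on 7 days (evenly spaced), from FPKM as deposited (top, bars are SE) and after median-ratio scaling (bottom, no bars); filled points were called and open points were not, and dotted lines mark 1.5-fold. Cacng1 peaks at 2.21 on 5 d, Jph2 is lowest at -1.99 on 3 d, and the late values of Cacna1s and Cacnb1 are filled above and open below.

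Counted together, 0 of the 9 members were called higher and 2 lower at 1 d, against 6.34% and 2.49% of all genes tested. After median-ratio scaling 5 were lower at 1 d (Jph2, Stac3, Cacnb1, Jsrp1 and Cacna1s, the last at -0.63), beside 4.68% of all genes under that scaling, and with TPM 1, beside 2.47%. No member was higher at an unadjusted p under 0.05, and limma-voom on recovered fragments also called 0 higher. At 3 d 1 was higher and 4 were lower, against 13.2% and 6.03% of all genes, and the same numbers were called without the library that stood apart. At 5 d 1 was higher and 2 were lower, against 14.9% and 3.86%.

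At 7 d and at 14 d 3 members were higher and 2 lower, beside 15.4% and 4.1% of all genes at 7 d and 14.6% and 3.83% at 14 d. At 21 d and at 28 d 3 were higher and 3 lower, beside 11.8% and 3.93% at 21 d and 14.2% and 4.1% at 28 d. The 3 members that were higher were Cacng1, Cacna1s and Cacnb1 on each of these 4 days. After median-ratio scaling only Cacng1 was called higher, beside 7.15% of all genes at 7 d and 6.58% at 28 d under that scaling. All 4 samples lay above every 0 d sample for 1 of the 9 members at 3 d, 4 at 7 d and 3 at 28 d, beside 23%, 32.4% and 36.6% of all genes tested, and below every 0 d sample for 5, 3 and 3, beside 12.3%, 8.47% and 9.06%. The median log2 fold change of the 9 members was -0.49 at 3 d, 0.16 at 7 d and -0.09 at 28 d, beside 0.06, 0.13 and 0.14 for all genes tested.

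The fold changes of the steps between later days do not use the 0 d samples, but their p-values rest on the spread shared by all groups. From 1 to 3 d 1 member was higher (Cacng1, 2.27 ± 0.13 SE, limma adjusted p = 6.33e-14) and 2 were lower (Jph2, -1.53, and Jph1, -0.65), against 6.63% and 3.93% of all genes. From 3 to 7 d 3 members were higher (Cacna1s, Cacnb1 and Jsrp1) and 0 lower, against 5.08% and 2.61% of all genes. Here also 0 members were lower at an unadjusted p under 0.05 and by limma-voom. From 7 to 14 d limma called 0 of 9, against 0.634% of all genes (0.376% higher and 0.258% lower). From 14 to 28 d it also called 0 of 9, against 0.983% (0.512% higher and 0.471% lower). At an unadjusted p under 0.05 there were 2 and 6 members in these steps, beside 13.2% and 14.1% of all genes, and limma-voom called 0.

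Ratios to Cacna1s show how the composition of the channel's transcripts moved. Cacng1 to Cacna1s went from 1.77 ± 0.262 (SD, n = 4) at 0 d to 12.5 ± 3.71 at 3 d, and then came down to 4.25 ± 0.714 by 7 d and 2.60 ± 0.455 by 28 d. It was higher than at 0 d from 3 d on (exact permutation test, two-sided, p = 0.0286, adjusted p = 0.048), and the highest 3 d ratio, 18.1, was in the library that stood apart, without which the mean was 10.6 ± 0.209 (n = 3). Stac3 to Cacna1s was 1.02 ± 0.130 at 0 d, 0.891 ± 0.118 at 3 d and 0.380 ± 0.0337 at 14 d, and was lower from 5 d on (same test and p), with no overlap.

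Cacna1s to Ryr1, the voltage sensor against the release channel, was 0.918 ± 0.147 (SD, n = 4) at 0 d, 0.677 ± 0.137 at 3 d and 1.69 ± 0.146 at 28 d. It was lower at 1 and 3 d and higher from 7 d on (exact permutation test, two-sided, p = 0.0286, adjusted p = 0.048). Without the library that stood apart the 3 d mean was 0.745 ± 0.0162 (n = 3). At 5 d it was 0.998 ± 0.103 (exact permutation p = 0.371). The levels of voltage sensor and release channel thus changed order between 3 and 7 d within the same samples, which no scaling between samples can alter.

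Cacnb1 to Cacna1s passed on no day: it was 0.290 ± 0.0241 (SD, n = 4) at 0 d, and 0.227 ± 0.0407, 0.349 ± 0.0683 and 0.299 ± 0.0269 for 1, 3 and 28 d. Without the library that stood apart the 3 d mean was 0.382 ± 0.0246 (n = 3), with all 3 ratios above the highest 0 d ratio of 0.317, a difference of 0.40 on the log2 scale in place of 0.25. The smallest exact permutation p of this ratio was 0.0571 (adjusted p = 0.0857), at 1, 5 and 7 d. Ryr3 to Ryr1 was 0.00157 ± 0.000472 at 0 d and passed at 21 d only, at 0.000975 ± 0.000275 (exact permutation p = 0.0286, adjusted p = 0.048). With 0.1 FPKM added to each value that ratio no longer passed (adjusted p = 0.129). In all, 25 of 42 tests of ratios passed, each at the smallest p the design allows. Their adjusted p of 0.048, just under 0.05, depends on how many tests reached that p, that of Ryr3/Ryr1 at 21 d included. It would be higher with fewer such tests, so the passes do not stand independently of each other.

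**Figure D4:**
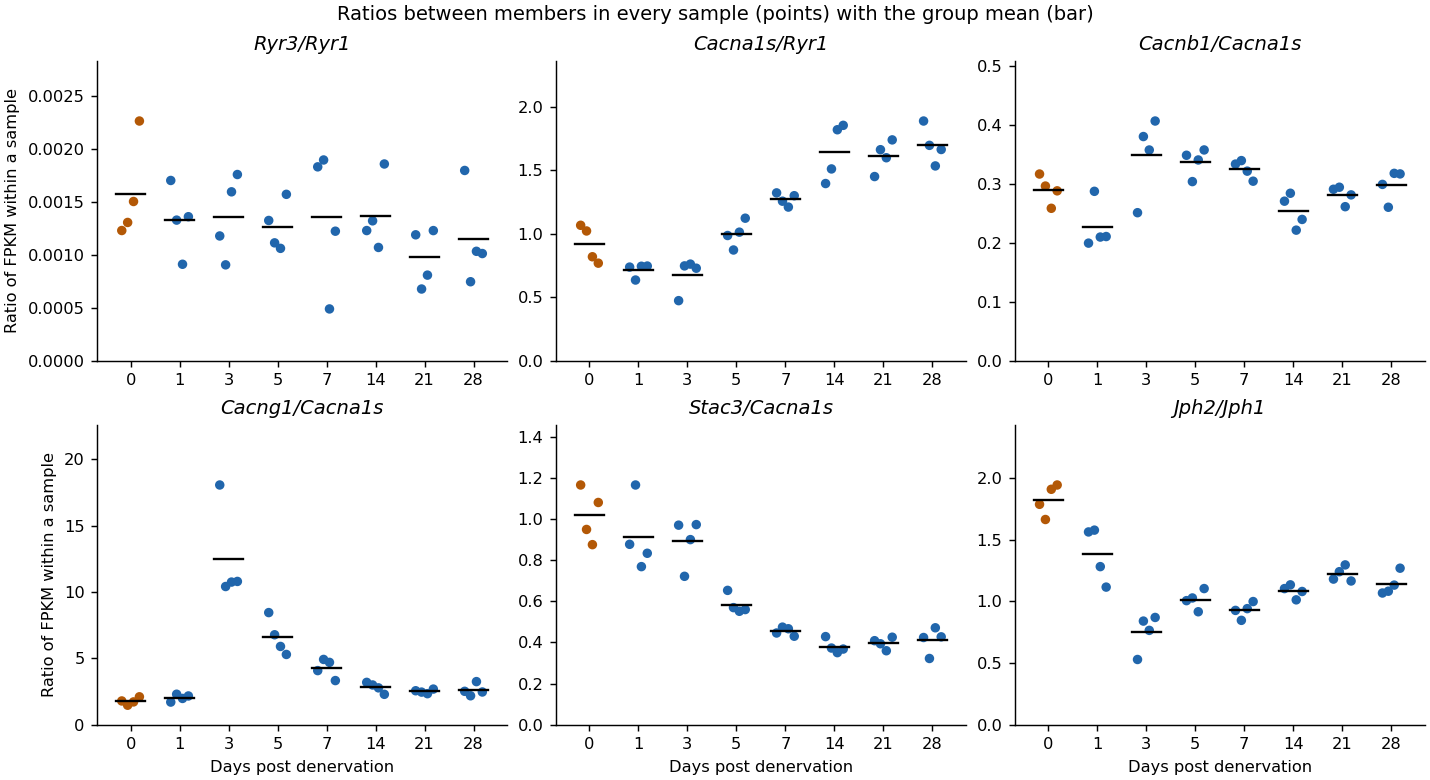
Ratio of the FPKM of 2 members within each sample against days post denervation (evenly spaced, linear axes from 0); points are samples, orange at 0 d and blue later, and bars are means of 4. Cacng1/Cacna1s jumps from a mean of 1.77 to 12.5 at 3 d, Cacna1s/Ryr1 climbs from 0.677 at 3 d to 1.69 at 28 d, and Jph2/Jph1 drops from 1.82 to 0.751 at 3 d.

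The other genes of the triad and of its calcium store moved in both directions. More were lower than higher at 3 d, and after median-ratio scaling at 7 and 28 d too. Of 45 listed genes 42 were tested. At 3 d 3 were higher and 14 lower, at 7 d 7 higher and 6 lower, and at 28 d 7 higher and 4 lower, beside 13.2% and 6.03%, 15.4% and 4.1%, and 14.2% and 4.1% of all genes tested. Without the library that stood apart, 4 were higher and 14 lower at 3 d. Their median log2 fold change was -0.14, -0.02 and 0.04 on these days, beside 0.06, 0.13 and 0.14 for all genes tested. After median-ratio scaling the counts were 2 higher and 17 lower at 3 d, 4 and 12 at 7 d, and 2 and 14 at 28 d, beside 9.02% and 9.17%, 7.15% and 7.93%, and 6.58% and 8.12% of all genes under that scaling.

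The largest falls at 7 d were those of Hrc and Casq1, which encode calcium-binding proteins of the sarcoplasmic reticulum lumen, Homer1, a scaffold protein, and Calm2, a calmodulin gene. Calm2 went from 194 ± 16.4 FPKM (SD, n = 4) at 0 d to 116 ± 18.2 at 7 d. Casq1 was 687 ± 31.5 FPKM (SD, n = 4) at 0 d, 80.6 ± 21.7 at 3 d and 436 ± 47.9 at 28 d. Its log2 fold change was -3.11 ± 0.14 (SE, limma adjusted p = 1.12e-16) at 3 d, -2.97 without the library that stood apart, and -0.66 ± 0.14 (SE, limma adjusted p = 0.000294) at 28 d. Hrc followed a like course, from 306 ± 17.3 FPKM at 0 d to 67.6 ± 3.50 at 3 d (66.7 without that library) and 161 ± 12.0 at 28 d. Homer1 instead was lowest at 28 d, with 3.70 ± 0.228 FPKM against 10.9 ± 1.38 at 0 d.

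Stac2, Dysf and Tmem38b had the 3 largest rises at 7 d on log2(FPKM + 1). Stac2, a relative of Stac3 best known from neurons, had 0.109 ± 0.0690 FPKM at 0 d and 1.57 ± 0.501 at 7 d (log2 fold change 1.20 ± 0.12, SE, limma adjusted p = 2.97e-09), from 2 to 9 and 56 to 109 fragments per library. At 7 d the level of Stac2 was thus far below the 63.6 to 76.8 FPKM of Stac3. The log2 fold change of Stac2 understates the difference between its means because 1 FPKM was added to every value. Tmem38b, which encodes the TRIC-B cation channel, was highest at 3 d (76.6 ± 13.2 FPKM, or 72.0 without the library that stood apart, against 19.1 ± 0.918 at 0 d). Dysf, the membrane repair gene, was 7.62 ± 0.679 FPKM at 0 d and 18.6 ± 2.23 at 7 d.

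**Figure D5:**
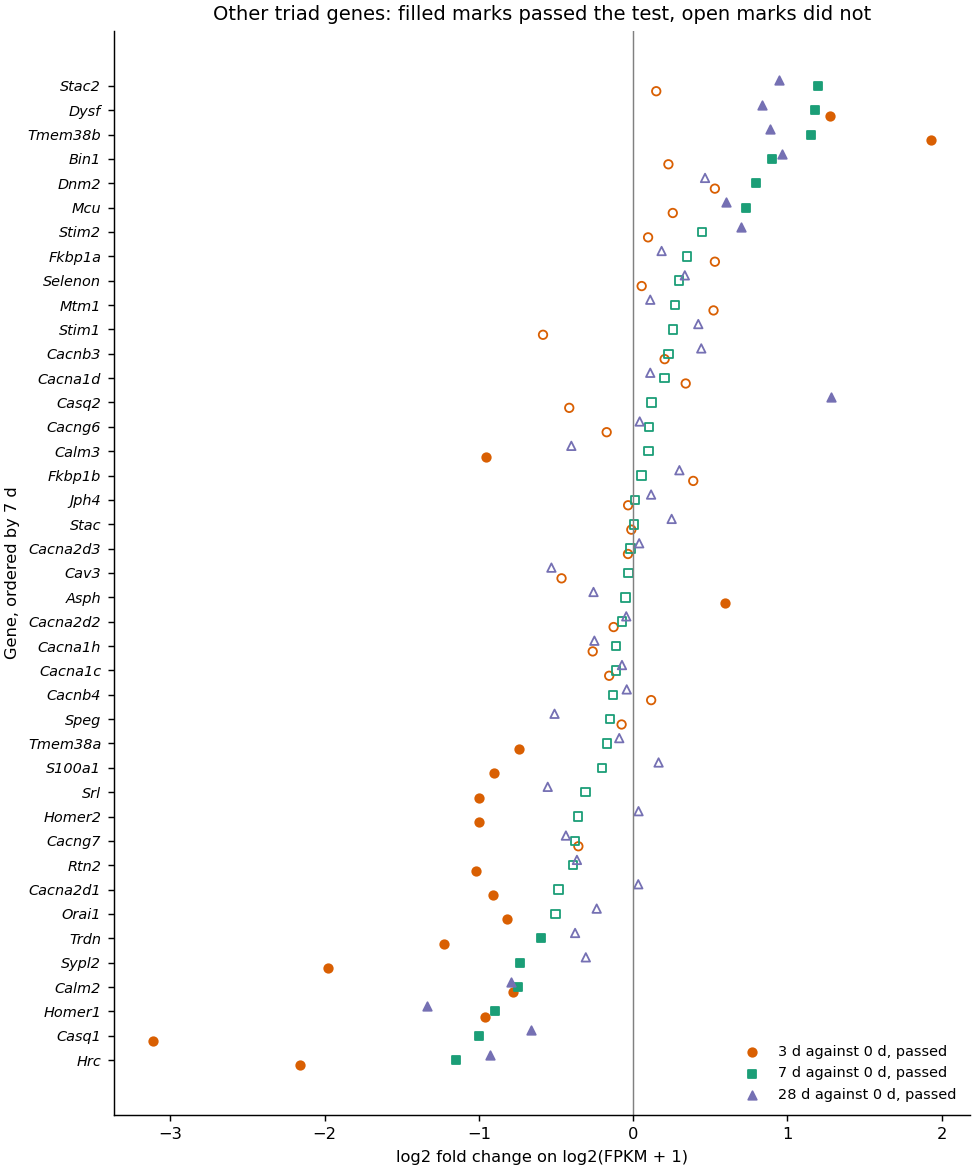
Log2 fold change on log2(FPKM + 1) of 41 of the 42 other triad genes tested at 3 d (circles), 7 d (squares) and 28 d (triangles) against 0 d, ordered by the 7 d value; filled marks were called and open marks were not. Casq1 reaches -3.11 at 3 d and Tmem38b 1.93, and at 7 d 6 genes are filled to the right and 6 to the left.

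Dhrs7c belongs to the short-chain dehydrogenases, several of which act on retinoids, and 28 of 29 listed genes of that family and of retinoid handling were tested. At 3 d 7 were higher and 3 lower, at 7 d 6 and 4, and at 28 d 8 and 4, beside the same shares of all genes tested as for the triad list. Their median log2 fold change was -0.04, 0.09 and 0.18 (all genes tested 0.06, 0.13 and 0.14). After median-ratio scaling 5 were higher and 7 lower at 3 d, 4 and 6 at 7 d, and 3 and 4 at 28 d, beside the shares of all genes given above for that scaling. Without the library that stood apart 8 were higher and 3 lower at 3 d. The count of 6 higher at 7 d was 2 without replicate 4 of that day and 10 with TPM, and the 8 higher at 28 d were 5 without replicate 4 of that day. Rxrg, a retinoid receptor, fell from 21.9 ± 1.29 FPKM (SD, n = 4) at 0 d to 4.91 ± 0.675 at 7 d and 3.55 ± 0.504 at 28 d. Aldh1a1, which makes retinoic acid, fell from 38.0 ± 5.86 to 8.36 ± 0.410 FPKM at 7 d. The other 2 enzymes of that step rose, Aldh1a2 from 8.87 ± 0.974 to 34.2 ± 6.93 FPKM and Aldh1a3 from 1.74 ± 0.301 to 6.85 ± 5.52 FPKM at 7 d (limma adjusted p = 2.50e-08 and 0.00703). Aldh1a3 varied widely between the libraries of 7 d, with 177 to 1037 fragments.

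Ryr1 and Ryr3 had no close match in course. The genes most like Ryr1 were Hif1an (Pearson r 0.843), Tmcc2 (0.769), Wdtc1 (0.768), Mast4 (0.753) and Cop1 (0.734), over 32 samples and 11940 genes. Those most like Ryr3 were Slc25a30 (0.619), Afap1l1 (0.618), Plxdc1 (0.577), Tmem94 (0.577) and Scn4a (0.576). At 18 to 81 fragments per library, counting noise limits the r that Ryr3 can reach. All these values are over the same libraries and describe them only.

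Markers of other cells moved over the same days. The summed FPKM of the 8 myofibre genes was 31867 to 35835 at 0 d and 18946 to 25408 from 3 d on, while 1 of the 8 was called higher and 4 lower at 3 d, 1 and 2 at 7 d, and 2 and 4 at 28 d. That of 6 macrophage genes was 119 to 172 at 0 d and between 258 and 1023 from 3 d on, with 5 of 6 called higher at 3 d and all 6 at 7 d. That of 5 Schwann cell genes was 76.3 to 169 at 0 d and 6.48 to 35.8 from 3 d on, with 0 higher and 3 lower at 3 d, 1 and 2 at 7 d, and 1 and 3 at 28 d. That of 4 endothelial genes was 77.2 to 88.5 at 0 d and 45.3 to 73.6 from 3 d on, with 3 lower at 3 d and 1 at 7 and at 28 d. The 5 fibroblast genes summed to 388 to 515 at 0 d and to 247 to 843 from 3 d on, the 3 adipocyte genes to 134 to 265 and 36.5 to 562, and the 2 smooth muscle genes to 45.9 to 53.5 and 23.7 to 54.3. No gene of these 7 lists was at 0 in all samples of a day, and the part of these shifts in the members' changes was not tested.

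Relative to the myofibre sum in the same sample, a measure added after the data were seen and without a test, the members moved differently. Jph1 differed from 0 d by -0.11, -0.03 and -0.07 on the log2 scale at 3, 7 and 28 d, against -0.72, -0.62 and -0.83 for its FPKM without a pseudocount. At 5 and 21 d the value of Jph1 was -0.32 and -0.25. Stac3 differed by -0.34, 0.09 and 0.07 at 3, 7 and 28 d. Jph2 was still lower by this measure, at -1.42 for 3 d and -0.76 for 28 d, and Cacng1 higher, at 2.64, 2.50 and 1.93 for the 3 days. Ryr1 lay at 0.30, 0.76 and 0.48, and Cacna1s at -0.15, 1.24 and 1.38.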

How the data were processed

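RNA was sequenced by the authors in 32 GAS samples of 8 groups. The deposited table holds FPKM values for 33397 genes, made by the authors from their reads. The submitters' processing notes name CASAVA, HISAT2 2.1.0, DESeq2 and GRCm38 without a role or order, and the counting program, its annotation and its use of strand are not given in the sources used here. Columns named C were taken as 0 d, since all other column names carry a day, and replicate numbers here follow the columns.

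Gene lengths were taken from an annotation of GRCm38 that matched 33356 genes (99.9%), with which the values could be turned back into whole fragments. Of values under 200 fragments, 99.3% in each library lay within 0.02 of a whole number. Depth is the total of fragments by which the FPKM values of a library were scaled, recovered from the values themselves. FPKM were tested as log2(FPKM + 1) with limma 3.58.1 (R 4.3.3; lmFit, eBayes with trend) over all 8 groups and the 22071 genes with at least 0.1 FPKM in at least 4 samples. The fitting procedure was tested on simulated data. Ratios within a sample were compared by an exact permutation test (scipy 1.17.1).

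A gene was called at an adjusted p under 0.05 over all genes tested and at least 1.5-fold. Alternatives were a pseudocount of 0.1, other filters, TPM, median-ratio scaling, values without mitochondrial genes, no variance trend, only the 2 groups compared, limma-voom on recovered fragments, and leaving out each sample in turn. The ratio to summed myofibre markers was added after seeing the data. The members and lists were chosen with earlier results of these data known. Besides the members, the text names the 4 largest rises and falls at 7 d among called triad genes (1 rise is not reported here), 2 of each among retinoid genes, and the 5 genes with the highest Pearson r to Dhrs7c, Ryr1 and Ryr3 among genes with a mean of at least 1 FPKM, and marker genes.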

Additional observations from a re-analysis of the deposited data

Results flagged for a closer look

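In 3 of 80 groups of 4 samples (10 genes, Dhrs7c included, on 8 days), a member had 1 sample far from the other 3, beyond the 95% limit of Dixon's test, which chance reaches in about 1 in 20 groups. Cacna1s had 103 FPKM in sample 1 of 5 d, while the others had 127 to 130 FPKM. Cacng1 had 406 FPKM in sample 4 of 14 d (others 533 to 555 FPKM) and 415 FPKM in sample 3 of 28 d (others 365 to 374 FPKM).

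The changes against 0 d differed between 3 d and 7 d for Cacna1s, Cacnb1 and Jsrp1, which lay below 0 d at 3 d and above it at 7 d as deposited. The difference itself, 7 d against 3 d, was 1.39 ± 0.11 for Cacna1s, 1.28 ± 0.13 for Cacnb1 and 0.64 ± 0.09 for Jsrp1 on the log2 scale (SE, limma adjusted p = 7.04e-11, 1.86e-08 and 1.87e-06). After median-ratio scaling it was 1.24, 1.14 and 0.49, and that of Jsrp1 was then short of 1.5-fold, with its 7 d value against 0 d at -0.05. Without the 3 d library that stood apart, the 3 d values of these genes were -0.66, -0.26 and -0.31.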

How the results depend on the processing

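Scaling between samples mattered most. Under median-ratio scaling, members lower at 1 d numbered 5 (2 as deposited) and members higher at 7, 14, 21 and 28 d 1 each (3 each). Other triad genes numbered 4 higher (7) and 12 lower (6) at 7 d, and 2 higher (7) and 14 lower (4) at 28 d, and the retinoid list 7 lower (3) at 3 d and 3 higher (8) at 28 d. With TPM, members lower numbered 1 at 1, 5, 7 and 14 d (2 each) and members higher 2 at 5 d (1), other triad genes 8 higher (3) at 3 d and 3 lower (6) at 7 d, and the retinoid list 10 higher (6) at 7 d. Without mitochondrial genes, 1 member was higher (3) at 28 d, 7 other triad genes were lower (4) at 28 d and 6 retinoid genes lower (3) at 3 d. With a pseudocount of 0.1, other triad genes higher numbered 5 (3) at 3 d and 11 (7) at 28 d, retinoid genes lower 5 (3) at 3 d, and the log2 difference of Ryr3/Ryr1 at 21 d was -0.35 (adjusted p = 0.129 by an exact permutation test) in place of -0.69. As a ratio to summed myofibre markers, the log2 difference of Stac3 at 28 d was 0.066 in place of -0.68, and 50 of 63 values of the members moved by more than their spread, such as Jph1 at 7 d to -0.03. The other filters (where Ryr3 has no value at 1 FPKM), no variance trend, only the 2 groups compared and limma-voom changed no call of a member. Beyond the scaling of samples, the cause was not tested.

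Leaving out 1 sample at a time, members higher at 5 d ranged from 1 to 2 (2 without 5 d replicate 1, where Cacnb1 was called at 0.60) and members lower at 7 d from 1 to 2 (1 without 0 d replicate 3, 7 d replicate 3 or 7 d replicate 4, where Jph1 was between -0.58 and -0.57). Retinoid genes lower at 3 d ranged from 3 to 5 (5 without 3 d replicate 3), higher at 7 d from 2 to 9 (2 without 7 d replicate 4, 9 without 7 d replicate 3) and higher at 28 d from 5 to 8 (5 without 28 d replicate 4). Cacna1s at 28 d was no longer called without 0 d replicate 1, 0 d replicate 4 or 28 d replicate 2 (0.55 to 0.58), Cacnb1 at 3 d was called without 3 d replicate 4 (-0.61), and the 7 d against 3 d difference of Jsrp1 was not called without 7 d replicate 2 (0.56). No paired analysis was possible because the columns after 0 d carry letters and none of the replicate numbers of the sample titles. Depth limits Ryr3, with 18 to 81 fragments in a library, the values of Dhrs7c from 3 d on, with 23 to 133, and Stac2 at 0 d, with 2 to 9.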
